A study of Homo sapiens with 32 samples.

Results

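The cytosolic ribosomal protein genes are the genes whose products build the large (RPL) and small (RPS) subunits of the cytoplasmic ribosome. They were taken by symbol alone: RPL or RPS followed by A, P0, P1, P2 or a number with at most 1 closing letter A, X or L. The rule found 81 of the 18583 genes with values, 49 for the large and 32 for the small subunit, and it used no measured value. Ribosomal protein genes named in another way (FAU and RACK1 among them) and the mitochondrial ribosomal proteins fall outside it and serve as comparison.

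Messenger RNA was measured in HGrC1, an immortalised human granulosa cell line derived from the hormone-producing cells that surround the oocyte. The vials of cells were thawed separately, and each was divided over vehicle (0.05% DMSO) and 0.01, 0.1 or 1 µM perfluorooctane sulfonate (PFOS, a persistent fluorinated surfactant), which was renewed at every passage. RNA was taken after 6 and after 12 weeks, which gave 8 groups of 4 libraries, 32 in all. All groups, the controls included, grew in medium with 10% fetal bovine serum and 100 nM of a steroid. That steroid is named as estradiol in the sample labels and as testosterone in the authors' published methods. HGrC1 is 1 line, so the replicates are vials of 1 line and their spread is not that between donors.

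A ribosome needs 1 copy of nearly every ribosomal protein (the acidic stalk proteins are the exception), and cells make these proteins in step with one another and with ribosomal RNA. Most ribosomal protein transcripts start with a C followed by an unbroken run of pyrimidines, the 5′ terminal oligopyrimidine (TOP) tract, through which the kinase mTOR and the RNA-binding protein LARP1 set their translation and stability. Unassembled RPL5 and RPL11 bind MDM2 together with 5S ribosomal RNA and thereby stabilise p53. In growing granulosa cells this machinery carries the synthesis of steroidogenic enzymes and secreted hormones.

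Because the TOP tract is the sequence feature for which this gene family is known, the first transcribed bases of a few members are shown. They were chosen after the values were seen: RPSA, RPL36A, RPS12, RPL13A and RPS4X had some of the highest average changes between 6 and 12 weeks, and RPS26, RPL41 and RPLP1 the lowest among members with an entry, while RPS27L is a copy of RPS27. Each line gives 8 bases before the annotated transcript start and 20 from it, on the transcribed strand and 5′ to 3′, as RefSeq lists them for GRCh38.p14. Capitals mark the unbroken run of C and T from the start, where the first base is C.
RPSA, chr3:39406712-39406739, plus strand: ccgcctgtCTTTTCCgtgctacctgcag
RPL36A, chrX:101391003-101391030, plus strand: cgcggtttCTTTCTTTCCgcgccgatag
RPS12, chr6:132814561-132814588, plus strand: gatgaggcCTCTTTCCCTgccgccgccg
RPL13A, chr19:49487600-49487627, plus strand: acctcctcCTTTTCCaagcggctgccga
RPS4X, chrX:72277229-72277256, minus strand: ccagccccaatttctacgcgcaccggaa
RPLP1, chr15:69452810-69452837, plus strand: cgcgagagCCCCTTTCCTCagctgccgc
RPL41, chr12:56116625-56116652, plus strand: tcgcctttCTCTCggccttagcgccatt
RPS26, chr12:56041910-56041937, plus strand: ataacctcgattttcttccgccatccgg
RPS27L, chr15:63157458-63157485, minus strand: tgccgagcgcagatcgcttgcagcttgc

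A C at the annotated start with C or T at each of the next 4 bases, read on the transcribed strand, was found in 46 of the 64 members that have an entry in the RefSeq promoter table (71.9%). In windows, it was found in 46 of the 79 listed for the members (58.2%) and in 1429 of 35116 listed for all genes (4.07%). Among translation factors with an entry, 12 of 30 had it (40.0%), among ribosome biogenesis genes 9 of 66 (13.6%), and among mitochondrial ribosomal proteins 6 of 70 (8.57%). Counted per gene as well, it was found in 1404 of 27305 genes with an entry (5.14%). Of tested genes outside the members, 736 of 10545 had it (6.98%), near the share of the mitochondrial ribosomal proteins. Here and below, the list of translation factors is a broad one that also holds PABPC1, PABPC4, TPT1 and NAP1L1. RPS4X, RPS26, RPS27L, RPS29, RPL3, RPL4 and RPL15 were among the 18 members without it. An annotated start can differ from the start used in these cells, so a missing run says only that these letters are not at the listed position.

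The libraries held between 17907057 and 18553350 expected counts. Within groups, 48 pairs of libraries were compared, and 0 were identical. Defining granulosa transcripts were uneven: GATA4 had a median of 2401 counts, WT1 1202 and AMH 248, while FOXL2 had 20 and CYP19A1 (aromatase) had at most 1 count in 1 of 32 libraries. Liver transcripts (AFP, AHSG, ALB, APOB, GPC3, AMBP) summed to at most 1 count in the vehicle and 0.01 µM libraries at 6 weeks and to between 72 and 919 counts in the other 24 libraries, highest in vehicle vial 3 at 12 weeks. Vials 3 and 4 of 0.01 µM at 12 weeks stood apart from vials 1 and 2 in the ribosomal protein genes, and the main results of that group are also given without them.

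Of the 81 members, 79 were expressed well enough for testing. RPL10L, a retrogene known from the testis, had 0 counts in all 32 libraries, which allows up to 3 counts in each. RPL3L, the muscle copy of RPL3, had at most 2 counts in a library and a sum of at most 3 in a group, so no fold is given. Its exact two-sided permutation p lay between 0.429 and 1 over 10 comparisons of 4 libraries with 4. The other 2 copies were transcribed: RPL39L, another copy known from the testis, at 113 ± 4.69 TPM (a level scaled by transcript length and library size) and RPS27L, a known p53 target, at 26.0 ± 2.01 TPM (SD, n = 4) in the 6-week vehicle. RPL39 and RPS27, which they resemble, stood at 2640 ± 226 and 4314 ± 502 TPM.

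The members were among the most abundant messages of the cells. In the 6-week vehicle, 43 of them were among the 100 genes of highest TPM, and 54 reached at least 1000 TPM. RPL41, which encodes a very short basic peptide of the large subunit, was highest at 4934 ± 226 TPM, followed by RPS18 (4540 ± 291), RPS27 (4314 ± 502), RPS2 (4280 ± 138) and RPL12 (3793 ± 131; SD, n = 4). RPS18, RPS27 and RPS2 differed from one another by less than the SD of RPS18, so their order is not resolved.

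The lowest members after RPL10L and RPL3L were RPS27L, RPL37 at 69.0 ± 5.77 TPM and RPL14 at 103 ± 1.77 TPM. Without the 4 copies RPL3L, RPL10L, RPL39L and RPS27L, the remaining 77 members spanned 71.5-fold, with quartiles at 778, 1784 and 2519 TPM. This range depends on the transcript lengths that the authors' counting assigned: RPL37 had 88.2 counts per TPM and RPL14 81.6, against a median of 5.95 over the members, so that both held many reads at a low TPM. The order of levels hardly moved between groups, with a Pearson correlation of mean log2 TPM with the 6-week vehicle between 0.998 and 1.00 over the 79 tested members.

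Summed over the 81 members, the share of each library's counts was higher at 12 than at 6 weeks in every treatment. At 6 weeks the vehicle libraries held 4.36, 4.50, 4.33 and 4.18% (vials 1 to 4), and at 12 weeks 5.13, 5.64, 5.27 and 5.62%. At 0.01 µM the shares were 4.39, 4.43, 4.65 and 4.69% at 6 weeks and 5.15, 5.61, 6.53 and 6.51% at 12 weeks. At 0.1 µM they were 4.51, 4.29, 4.29 and 4.37% at 6 weeks and 5.27, 5.28, 5.36 and 5.04% at 12 weeks. The highest 6-week library, at 4.69%, lay below the lowest 12-week library, at 4.89%, so the times did not overlap in counts. In share of TPM they did overlap, with 13.14 to 14.86% at 6 weeks and 14.76 to 19.27% at 12 weeks. Vial 4 of 0.01 µM at 6 weeks (14.86%) lay above vial 1 of 1 µM at 12 weeks (14.76%). Within each treatment the shares of TPM did not overlap between the times.

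At 1 µM the shares were 4.46, 4.47, 4.58 and 4.44% at 6 weeks and 4.89, 5.13, 5.16 and 5.08% at 12 weeks. As a ratio of group means, 12 over 6 weeks, this was 1.25 ± 0.0700 in the vehicle, 1.31 ± 0.157 at 0.01 µM, 1.2 ± 0.0431 at 0.1 µM and 1.13 ± 0.0318 at 1 µM (SD carried over from both groups, n = 4 and 4). Without vials 3 and 4 at 12 weeks the ratio at 0.01 µM was 1.19. On the TPM scale the ratios were 1.19, 1.23, 1.17 and 1.14. The share is relative to all other messenger RNA in a library, so more ribosomal protein RNA per cell and less of other RNA cannot be told apart.

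**Figure D1:**
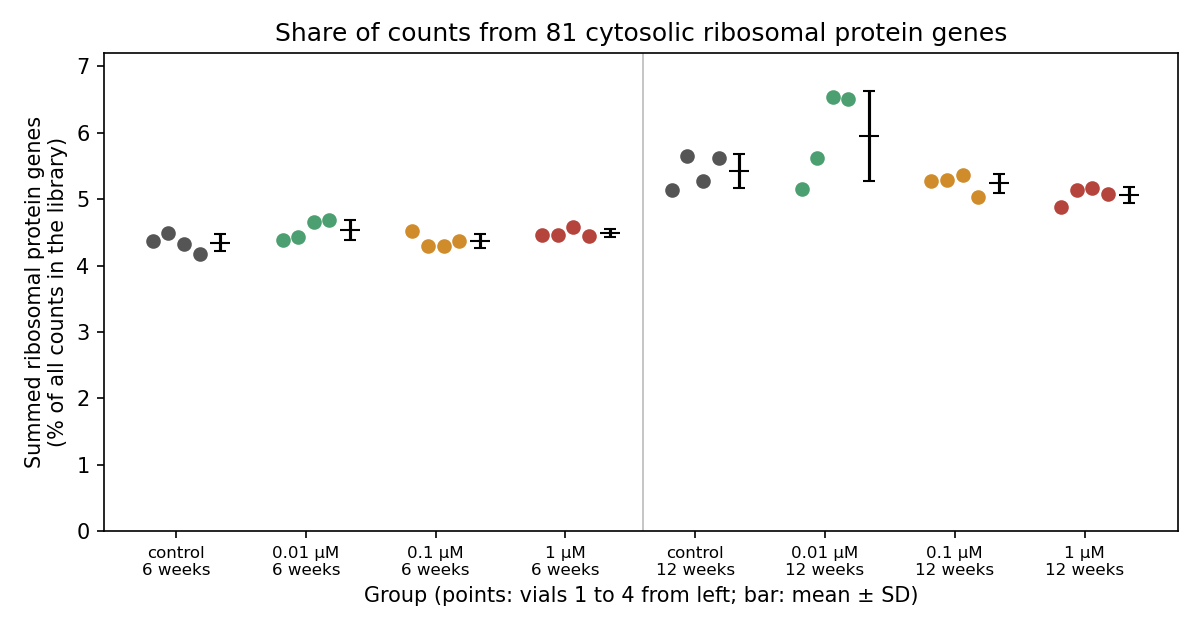
Share of all counts that came from the 81 ribosomal protein genes (%), for each library in the 8 groups (points, vials 1 to 4 from left) with mean ± SD beside them. All 16 libraries at 12 weeks lie above the 16 at 6 weeks, and vials 3 and 4 of 0.01 µM at 12 weeks are the highest at 6.53 and 6.51%.

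The first comparison asked whether PFOS changed these genes relative to the vehicle of the same time. None of the 79 tested members passed an adjusted p of 0.05 in any of the 6 comparisons (edgeR's quasi-likelihood test, Benjamini-Hochberg over all genes tested). Of all genes tested, 0% were called at 0.01 µM, 4.24% at 0.1 µM and 0.28% at 1 µM after 6 weeks, and 0, 1.07 and 0.22% after 12 weeks. DESeq2 called RPS29 (a zinc-finger protein of the small subunit, log2 fold change 0.22, adjusted p = 0.0427) at 0.1 µM after 6 weeks. It also called 2 members at 1 µM after 6 weeks, RPS12 among them (0.12, adjusted p = 0.0266), and 0 members in the other 4 comparisons. Shares of all genes that DESeq2 called, here and below, are not given. No member reached a 2-fold difference: the largest fitted fold over the 6 comparisons was 1.21, at 0.01 µM after 12 weeks.

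At 6 weeks the differences were small, mostly upward at 0.01 and 1 µM and without a common direction at 0.1 µM. At 0.01 µM, 73 of 79 log2 fold changes lay above 0 with a median of 0.06, at 0.1 µM 40 with a median of 0.0007, and at 1 µM 71 with a median of 0.05. Over all genes tested, 51.1, 50.1 and 49.4% lay above 0, with medians of 0.00 in each. These comparisons share their vehicle libraries, and members vary together within a library, so the counts of signs are not independent observations. At an unadjusted p under 0.05, 18 members were higher at 0.01 µM, 2 higher and 4 lower at 0.1 µM, and 19 higher at 1 µM. Of all genes tested, 9.6, 20.8 and 13.7% had such a p in either direction. The summed share at 0.1 µM was 1.01 times that of the vehicle in counts and 0.984 times on the TPM scale, and at 1 µM 1.03 and 0.998 times, so the direction depends on the scale in both.

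The members closest to a call at 6 weeks belonged to different parts of the ribosome. RPLP1, an acidic protein of the stalk that recruits elongation factors, had 734, 809, 837 and 798 CPM (counts scaled to a common library size by TMM, not by length) in the vehicle and 875, 843, 895 and 845 CPM at 0.01 µM. The groups did not overlap. The log2 fold change was 0.12 ± 0.04 (SE) with an adjusted p of 0.374.

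RPS12 had 339, 369, 368 and 343 CPM in the vehicle and 401, 370, 395 and 377 CPM at 1 µM, and the nearest libraries of the groups (368.8 and 369.7 CPM) all but touched. The log2 fold change was 0.12 ± 0.03 (SE, adjusted p = 0.129). RPS27L had 94.4, 109.5, 98.5 and 89.97 CPM in the vehicle against 109, 109, 104 and 108 CPM at 0.1 µM, where vehicle vial 2 was the highest of the 8 libraries, and a log2 fold change of 0.13 ± 0.05 (SE, adjusted p = 0.109). Without vial 2, RPS27L and RPL36A were called at 0.1 µM (adjusted p = 0.0271 and 0.0367), and RPS12 and RPL36A at 1 µM (0.0495 and 0.0411). How many of all genes were called without vial 2 is not given here.

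After 12 weeks the members lay above the vehicle at the lowest concentration and below it at the highest. At 0.01 µM 79 of 79 log2 fold changes were above 0 with a median of 0.15, at 0.1 µM 3 were above 0 with a median of −0.07, and at 1 µM 0 were above 0 with a median of −0.13. Over all genes tested 51.1, 48.1 and 48.3% were above 0. At an unadjusted p under 0.05, 36 members were higher at 0.01 µM, 1 was lower at 0.1 µM and 16 were lower at 1 µM. Of all genes tested, 8.48, 15.4 and 8.75% had such a p in either direction. The lowest adjusted p of the members were 0.565, 0.211 and 0.298. The 3 comparisons share their vehicle libraries, and members vary together within a library, so the counts of signs are not independent observations.

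The upward direction at 0.01 µM rested on vials 3 and 4. Without them the median log2 fold change of the members was −0.0036, with 39 above and 40 below 0. RPS13 of the small subunit had 241, 262, 242 and 269 CPM in the 12-week vehicle and 247, 283, 319 and 336 CPM at 0.01 µM, so that vial 1 lay in the vehicle range and vials 2, 3 and 4 above it (log2 fold change 0.22 ± 0.07, SE, adjusted p = 0.565). RPS16 (0.22 ± 0.07) and RPS19 (0.20 ± 0.07), the latter a gene mutated in Diamond-Blackfan anaemia, had the same adjusted p. Without vials 3 and 4 the 3 genes gave 0.06, 0.09 and 0.06 (adjusted p = 0.848, 0.802 and 0.845). Vial 3 also had the lowest share of mitochondrial genome transcripts of its group, 3.54%, against 4.99, 5.16 and 4.74% in vials 1, 2 and 4. The part of this difference in the result was not tested.

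At 1 µM after 12 weeks RPL14, a large subunit protein, had the smallest p. The vehicle had 535, 551, 544 and 558 CPM and the exposed libraries 494, 451, 509 and 475 CPM, so the groups did not overlap, and the log2 fold change was −0.19 ± 0.06 (SE, adjusted p = 0.298). RPS27 had 333, 345, 327 and 383 CPM against 299.6, 305, 304 and 276 CPM, also without overlap (−0.23 ± 0.08, adjusted p = 0.333). Among 1166 tested short genes outside the rule (at or under the members' upper quartile of 12.1 counts per TPM, a measure of transcript length chosen after the values were seen), the median was −0.07, beside −0.13 in the members. At 0.01 and 0.1 µM after 12 weeks the short genes had medians of 0.05 and −0.07, beside 0.15 and −0.07 in the members. The part of transcript length in these differences was not tested.

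At 0.1 µM after 12 weeks, RPL41 had 966, 1102, 1109 and 1144 CPM in the vehicle and 967, 964, 952 and 884 CPM exposed. Vehicle vial 1 lay in the exposed range and the other 3 above it (log2 fold change −0.20 ± 0.08, SE, adjusted p = 0.211; without vial 1, −0.26 and adjusted p = 0.0382). RPLP1 (−0.14 ± 0.07) and RPL27 (−0.16 ± 0.08) were the next by p, with adjusted p of 0.329 and 0.349.

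**Figure D2:**
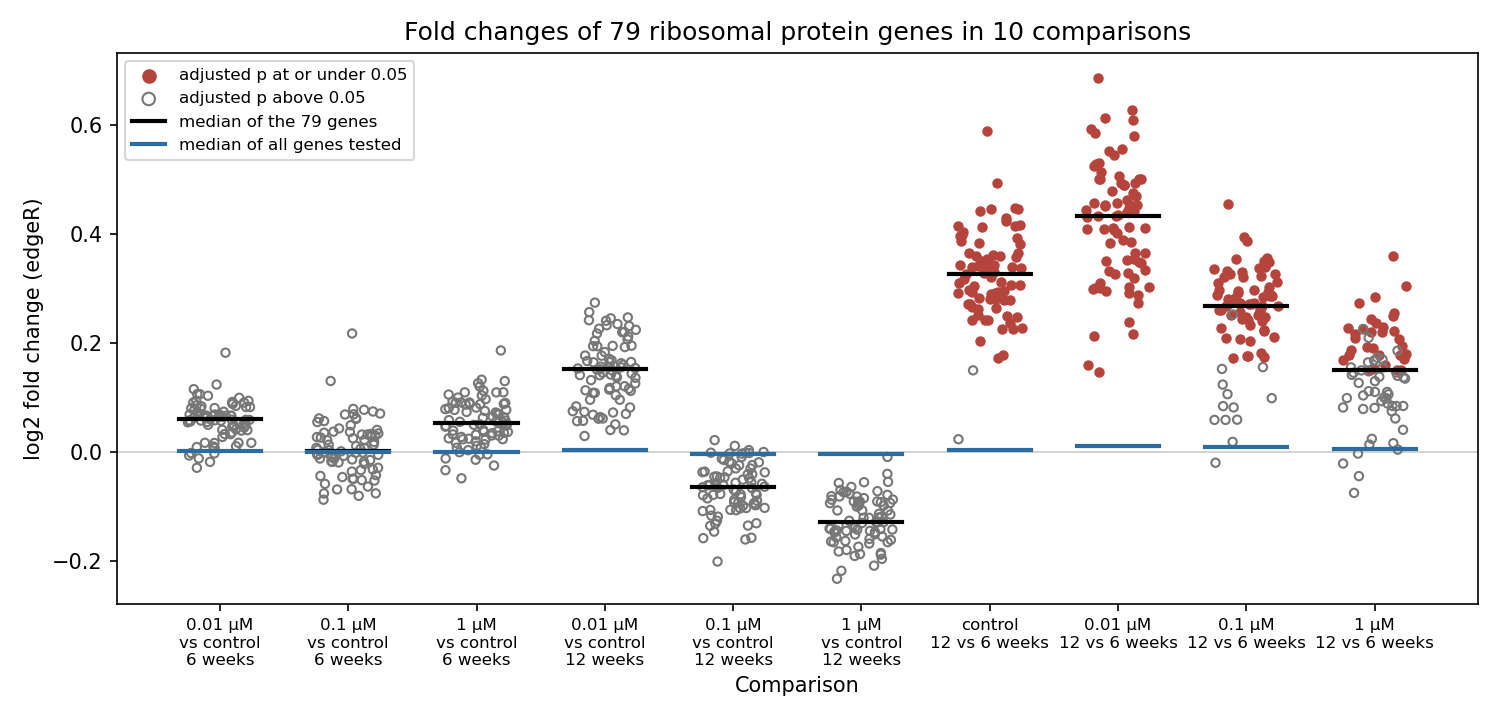
Log2 fold change of each of the 79 tested members (points) in 6 comparisons of PFOS with vehicle and 4 of 12 with 6 weeks, with the median of the members (black) and of all genes tested (blue); red points passed an adjusted p of 0.05. The PFOS comparisons hold no red point, and the members' medians run from −0.13 to 0.15 there and from 0.15 to 0.43 in the comparisons of 12 with 6 weeks.

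The second comparison asked how the same cultures differed between 12 and 6 weeks. In the vehicle, 77 of 79 members rose, against 17.3% of all genes tested, and 0 fell. At 0.01 µM 79 rose (background 21.4%), at 0.1 µM 66 (background 19.7%) and at 1 µM 32 (background 14.2%), and again 0 fell. The count at 1 µM was 18 without vial 2 and 20 without vial 3. The median log2 fold changes were 0.33, 0.43, 0.27 and 0.15, that is 1.25-, 1.35-, 1.2- and 1.11-fold, against medians of 0.00 to 0.01 over all genes. At 6 and 12 weeks cells were harvested separately, so time, passage number and any difference in handling cannot be told apart. The share of mitochondrial genome transcripts ran from 4.48 to 6.77% of counts at 6 weeks and from 3.54 to 5.88% at 12 weeks, and liver transcripts were near 0 in the vehicle and 0.01 µM libraries at 6 weeks alone. The endothelial list summed to 8.65 to 13.8 CPM at 6 weeks and 3.48 to 7.92 CPM at 12 weeks, the leukocyte list to 27.4 to 36.8 and then 16.7 to 27.9 CPM, and the theca and stroma list to 1929 to 2450 and then 1699 to 2723 CPM. In the vehicle 2 of 4 tested endothelial genes fell (PECAM1 log2 fold change −2.65 ± 0.41), as did 1 of 2 leukocyte genes (CD14, −0.88 ± 0.18) and 1 of 4 theca and stroma genes (PDGFRA, −1.87 ± 0.31), while LUM of the last list rose (0.36 ± 0.12). PECAM1, CD14, PDGFRA and the granulosa gene CYP11A1 fell in all 4 treatments. Of the 11 tested granulosa genes, 3 fell and 1 rose in the vehicle (WT1, 0.33 ± 0.06), where 19.3% of all genes fell and 17.3% rose. At 0.01 µM 5 of the 11 fell and 0 rose, at 0.1 µM 3 fell and 1 rose, and at 1 µM 4 fell and 2 rose. Of all genes tested, 21.3, 20.6 and 15.9% fell in these treatments and 21.4, 19.7 and 14.2% rose. CYP17A1 and CD3E had at most 3 counts. The part of any of these in the result was not tested.

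Read library by library, all 4 libraries at 12 weeks exceeded all 4 at 6 weeks for 73 members in the vehicle (14.8% of all genes), 68 at 0.01 µM (15.8%), 68 at 0.1 µM (19.5%) and 53 at 1 µM (14.3%). For 0 members did all 12-week libraries lie below. In all, 32 members were called in 4 of the 4 treatments, 34 in 3, 11 in 2 and 2 in 1. The 4 comparisons come from 1 fit, and the share of all genes called in as many treatments is not given here. In the vehicle, 46 of 47 RPL genes rose with a median of 0.30, and 31 of 32 RPS genes with a median of 0.33. Leaving out vials 3 and 4 at 12 weeks (a choice made after the data were seen) lowered the median at 0.01 µM to 0.27, with 79 of 79 members above 0 and 70 called. This omission also raised the number called at 1 µM to 50, where all groups share 1 estimate of the spread. How many of all genes were called in that fit is not given here.

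The small subunit genes are described first. RPS2 (gene ID 6187), which lines the entry channel for messenger RNA, had 1792, 1855, 1870 and 1929 CPM in the vehicle at 6 weeks and 2409, 2582, 2421 and 2518 CPM at 12 weeks. No library of one time reached the range of the other, and RPS2 rose by 0.42 ± 0.04 on the log2 scale (SE, adjusted p = 4.3e-09). At 1 µM its values were 1906, 1931, 1932 and 1930 CPM and then 2265, 2359, 2300 and 2449 CPM (0.28 ± 0.04, adjusted p = 6.17e-06).

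RPSA (gene ID 3921, chromosome 3, 39406720 to 39412542, plus strand), which forms part of the platform of the small subunit and is also known as a laminin receptor, had the highest average change over the 4 treatments. Its vehicle libraries had 843, 841, 807 and 838 CPM at 6 weeks and 1068, 1215, 1048 and 1152 CPM at 12 weeks. The log2 fold changes were 0.43 in the vehicle, 0.61 at 0.01 µM, 0.45 at 0.1 µM and 0.36 at 1 µM, each with an SE of 0.06 and called in each. RPSA had fractional counts in 32 of 32 libraries, a sign of reads divided with similar sequences, so its values carry that uncertainty. In all, 11 members had such counts in some library: RPSA, RPS10, RPL36A, RPL17, RPL12, RPS27L, RPS26, RPS20, RPL14, RPL39 and RPL39L.

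RPS4X (gene ID 6191, chromosome X, 72272042 to 72277248, minus strand), whose start lacks the pyrimidine run in the listed window, rose as well. It had 724, 729, 705 and 673 CPM in the vehicle at 6 weeks and 930.1, 975, 935 and 957 CPM at 12 weeks, with no overlap and a log2 fold change of 0.42 ± 0.05 (SE, adjusted p = 3.79e-08). RPS12, with a run of 10 pyrimidines at its start, rose by 0.45 ± 0.06, and RPS6, the classic substrate of S6 kinase, by 0.34 ± 0.06 (adjusted p = 7.65e-07 and 2.45e-05). RPS14 and RPS19, both known from inherited or acquired anaemias, rose by 0.40 ± 0.06 and 0.27 ± 0.05 (adjusted p = 1.03e-05 and 9.12e-05).

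RPS29 had the largest fitted change in the vehicle and at 0.01 µM, while RPSA had it at 0.1 and 1 µM. It had 96.7, 128, 127 and 112 CPM in the vehicle at 6 weeks and 147, 172, 174 and 203 CPM at 12 weeks, without overlap (0.59 ± 0.11, adjusted p = 0.00027). At 1 µM it had 137, 125, 128 and 137 CPM and then 151, 153, 140.2 and 165 CPM, and was not called (0.21 ± 0.11, adjusted p = 0.177). Its SD of log2(CPM + 1) over all 32 libraries, 0.293, was the largest of the family, followed by RPSA (0.257), RPS3A (0.246), RPS15A (0.243) and RPL36A (0.242).

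Among large subunit genes, RPL3 (gene ID 6122, chromosome 22, 39312882 to 39319623, minus strand), which reaches towards the peptidyl transferase centre, had 1590, 1717, 1626 and 1630 CPM in the vehicle at 6 weeks and 2151, 2272, 2258 and 2252 CPM at 12 weeks. The times did not overlap, and RPL3 rose by 0.44 ± 0.05 (SE, adjusted p = 1.25e-08). RPL36A rose by 0.49 ± 0.06, RPL13A by 0.45 ± 0.06, RPL12 by 0.41 ± 0.05, RPL28 by 0.35 ± 0.04 and RPL4 by 0.33 ± 0.05, each called in all 4 treatments. RPL36A and RPL12 had fractional counts in 32 and 20 libraries. RPL10, which is needed to join the subunits late in maturation, rose by 0.37 ± 0.06 (adjusted p = 4.67e-06).

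The genes of the 5S particle and of the stalk rose in the vehicle too. RPL5 had 521, 536, 529 and 512 CPM in the vehicle at 6 weeks and 664, 734, 649 and 695 CPM at 12 weeks, with no overlap. It was called in all 4 treatments with 0.39 ± 0.05 in the vehicle and 0.22 ± 0.05 at 1 µM, and its partner RPL11 in 3, with 0.28 ± 0.06 in the vehicle and 0.15 ± 0.06 at 1 µM (adjusted p = 0.066). The 3 stalk genes RPLP0, RPLP1 and RPLP2 rose in the vehicle by 0.34 ± 0.07, 0.23 ± 0.05 and 0.28 ± 0.05. At 1 µM they gave 0.19 ± 0.07, 0.01 ± 0.05 and 0.10 ± 0.05 (adjusted p = 0.0535, 0.883 and 0.114).

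RPS26 and RPL39L were the members not called in the vehicle. RPS26, which lies at the exit channel for messenger RNA, had 189, 184, 187 and 171 CPM in the vehicle at 6 weeks and 179, 187, 186 and 191 CPM at 12 weeks, with full overlap. Its log2 fold change was 0.02 ± 0.04 in the vehicle (adjusted p = 0.716), and among the 4 treatments it was called at 0.01 µM (0.15 ± 0.04, adjusted p = 0.00724). RPL39L gave 0.15 ± 0.07 in the vehicle (adjusted p = 0.0902), with 30.8, 34.6, 34.2 and 33.8 CPM and then 35.3, 36.2, 34.2 and 42.3 CPM, where 3 of the 4 later libraries lay above all earlier ones, and was called at 0.01 µM as well.

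At 0.1 µM 13 members were not called: RPL22, RPL23, RPL27, RPL38, RPL39L, RPL41, RPLP1, RPS21, RPS24, RPS26, RPS27L, RPS28 and RPS29. RPL41, the most abundant member per length, had 946, 949, 941 and 984 CPM at 6 weeks and 967, 964, 952 and 884 CPM at 12 weeks in that treatment (log2 fold change −0.02 ± 0.06, adjusted p = 0.826). In the vehicle it had 959.8, 964, 959 and 873 CPM and then 966, 1102, 1109 and 1144 CPM, without overlap (0.20 ± 0.06, adjusted p = 0.00987). RPS27L rose in the vehicle (0.29 ± 0.07, adjusted p = 0.00115) and gave 0.02 ± 0.07 at 0.1 µM (adjusted p = 0.86).

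**Figure D3:**
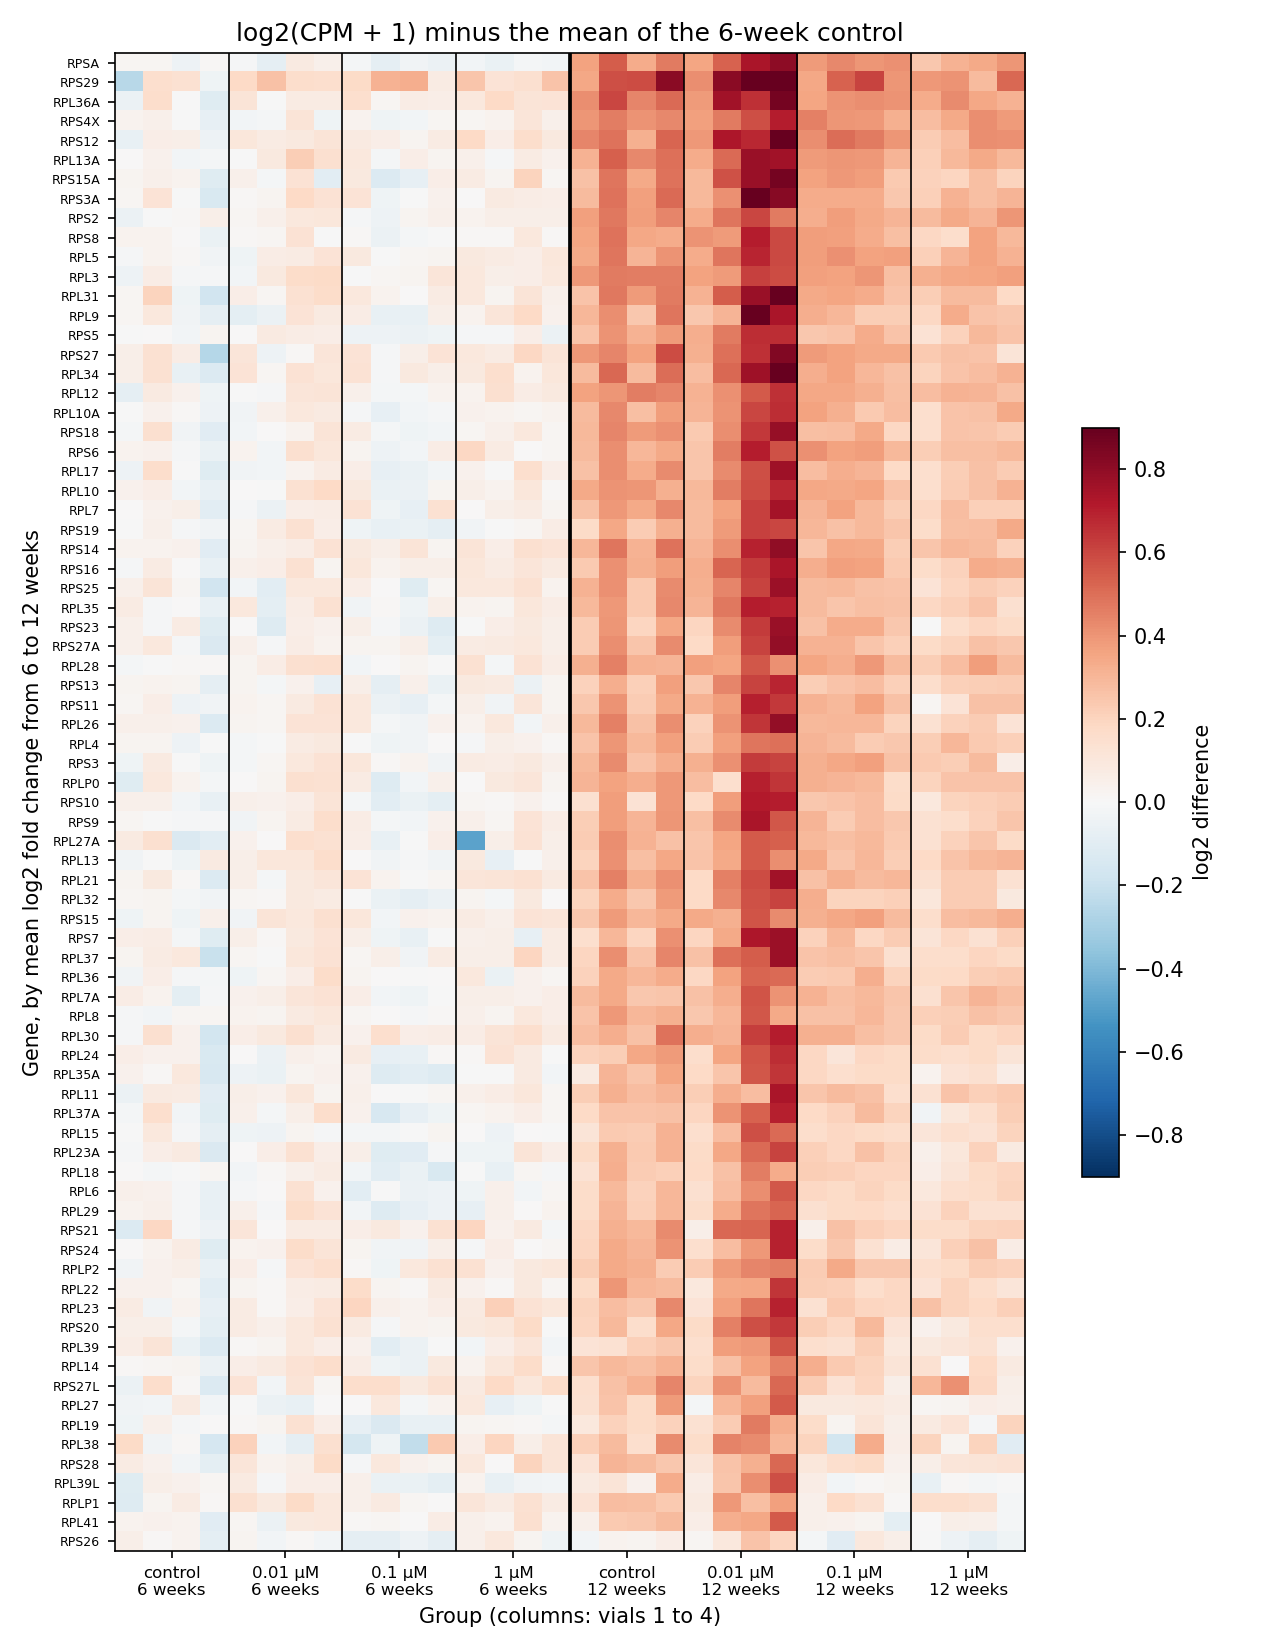
Difference of log2(CPM + 1) from the mean of the 6-week vehicle for 77 of the 79 tested members (rows, ordered by mean log2 fold change from 6 to 12 weeks) in 32 libraries (columns, vials 1 to 4 of each group). The right-hand 16 columns are red in nearly every row, darkest in vials 3 and 4 of 0.01 µM, and RPS26 and RPL41 at the bottom are palest.

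The third comparison tested whether the PFOS difference changed between 6 and 12 weeks (interaction, all 32 libraries in 1 fit). For 0 of 79 members did edgeR call it, at any concentration, where 0, 0.208 and 0.123% of all genes were called at 0.01, 0.1 and 1 µM. The medians were 0.10, −0.06 and −0.18, and 9, 67 and 79 of 79 members lay below 0. At an unadjusted p under 0.05 there were 6, 4 and 39 of 79 members, beside 7.48, 14.5 and 12.1% of all genes tested. DESeq2 called 0, 0 and 1, the last being RPL14 at 1 µM (log2 fold change −0.26, adjusted p = 0.0358).

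RPL14 also had the smallest p at 1 µM in edgeR (−0.26 ± 0.07, SE, adjusted p = 0.145). Its 6-week libraries had 453, 455, 457 and 434 CPM in the vehicle and 458, 482, 504 and 454 CPM at 1 µM, where the groups overlap, while at 12 weeks, as given above, the exposed libraries lay below the vehicle. RPS27 gave −0.34 ± 0.11 with an adjusted p of 0.207. Without vials 3 and 4 of 0.01 µM at 12 weeks, a choice made after the data were seen, 4 members were called at 1 µM. Among them were RPL21, RPL14 and RPS14, with log2 fold changes of −0.29, −0.26 and −0.25 and adjusted p of 0.0434, 0.0439 and 0.0498. How many of all genes were called in that fit is not given here, so the count is not read as particular to the members. The lower number of members called between the times at 1 µM than in the vehicle is therefore not shown to be a difference between the treatments by edgeR's test.

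At the other concentrations RPS13 had the smallest p at 0.01 µM (0.23 ± 0.08, adjusted p = 0.585; without vials 3 and 4 at 12 weeks, 0.07 and 0.805), and RPS27L at 0.1 µM (−0.28 ± 0.10, adjusted p = 0.176). RPS27L had 108.5, 118, 122 and 133 CPM in the 12-week vehicle and 115, 107, 112 and 101 CPM at 0.1 µM, and the groups overlapped. RPL15 and RPS23 at 0.01 µM and RPL41 and RPLP1 at 0.1 µM had adjusted p between 0.224 and 0.633.

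Within groups, members varied together, most of all at 0.01 µM after 12 weeks. After removing each group's mean, the log2(CPM + 1) of a member correlated with the mean of the other members at a median Pearson r of 0.843 over 32 libraries, from 0.202 (RPL38) to 0.945 (RPS10). Without vials 3 and 4 of 0.01 µM at 12 weeks the median was 0.721 over 30 libraries, and without that whole group it was 0.662 over 28. Over all 32, RPL28 (0.465), RPS27L (0.477), RPLP1 (0.490) and RPL27A (0.529) were the next lowest, and RPL27A had a single low library, vial 1 of 1 µM at 6 weeks, with 356 CPM against 515, 543 and 514 CPM in the other vials. Over all 32 libraries, mitochondrial ribosomal proteins correlated with the members' mean at a median of 0.499, the translation factors at 0.22, the ribosome biogenesis genes at 0.00459 and the transcripts of the mitochondrial genome at −0.306. FAU, a ribosomal protein fused to a ubiquitin-like domain and outside the naming rule, reached 0.927. These values are descriptions: the points share library preparation, depth and scaling.

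The median coefficient of variation among the 4 vials was between 3.06 and 5.67% in 7 groups and 13.6% at 0.01 µM after 12 weeks, where the members differed most between vials.

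Other genes of the translation machinery were grouped by function. Of 39 translation factors in the vehicle, 18 rose (46.2%) and 2 fell with a median log2 fold change of 0.10. EEF1A1, which delivers aminoacyl-tRNA, rose by 0.51 ± 0.06, EIF1 by 0.33 ± 0.04, EIF4B by 0.31 ± 0.04, EIF3H by 0.26 ± 0.04 and EIF3E by 0.38 ± 0.07. At 1 µM 12 of the 39 rose and 1 fell, with EEF1A1 at 0.35 ± 0.06 and EEF2, the translocation factor, at 0.21 ± 0.04.

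Of 76 ribosome biogenesis genes, 22 rose (28.9%) and 1 fell in the vehicle (median 0.05), 33 rose (43.4%) and 0 fell at 0.01 µM, 35 (46.1%) and 1 at 0.1 µM, and 12 (15.8%) and 3 at 1 µM, where 17.3, 21.4, 19.7 and 14.2% of all genes rose. NPM1, a nucleolar chaperone of ribosome assembly, rose by 0.33 ± 0.06 in the vehicle, NLE1 by 0.33 ± 0.07 and NOP58, a core protein of box C/D particles, by 0.22 ± 0.05. The mitochondrial ribosomal proteins gave 21 higher (26.9%) and 5 lower of 78 in the vehicle (median 0.07), 41 (52.6%) and 3 at 0.01 µM, 16 (20.5%) and 6 at 0.1 µM, and 8 (10.3%) and 3 at 1 µM. At 0.1 and 1 µM the share of this list, and at 1 µM that of the biogenesis genes, lay near or below the share of all genes. Of the 7 ribosomal or ribosome-like proteins outside the rule, 3 rose in the vehicle, RACK1 (0.24 ± 0.05) and FAU (0.30 ± 0.06) among them, while the copies RPL7L1, RPL22L1, RPL26L1 and RPL36AL were not called there.

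Regulators of this machinery, like all genes tested, moved in both directions. Of 18 tested genes of the mTOR and LARP list, 5 rose and 5 fell in the vehicle, where 17.3% of all genes rose and 19.3% fell. DEPTOR, an inhibitor bound to mTOR, fell by 0.99 ± 0.10 on the log2 scale in the vehicle and by 1.08 ± 0.10 at 1 µM. MTOR fell by 0.23 ± 0.04 in the vehicle. LARP1 rose at 0.1 µM (0.25 ± 0.05) and at 1 µM (0.22 ± 0.05). Of 10 genes known to respond to p53, 5 rose and 0 fell in the vehicle (17.3 and 19.3% of all genes), FDXR by 0.55 ± 0.10 and BBC3 by 0.60 ± 0.12. The list gave 4 higher and 1 lower at 0.01 µM, 3 and 2 at 0.1 µM, and 4 and 1 at 1 µM. Of all genes tested, 21.4, 19.7 and 14.2% rose in these treatments and 21.3, 20.6 and 15.9% fell. TP53INP1 fell by 0.49 ± 0.11 at both 0.01 and 0.1 µM, GADD45A by 0.15 ± 0.05 at 1 µM, and CDKN1A, which encodes the cell cycle inhibitor p21, by 0.40 ± 0.10 at 0.1 µM. Against the vehicle of the same time, CDKN1A fell by 0.56 ± 0.11 at 0.1 µM after 12 weeks (adjusted p = 0.0288).

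**Figure D4:**
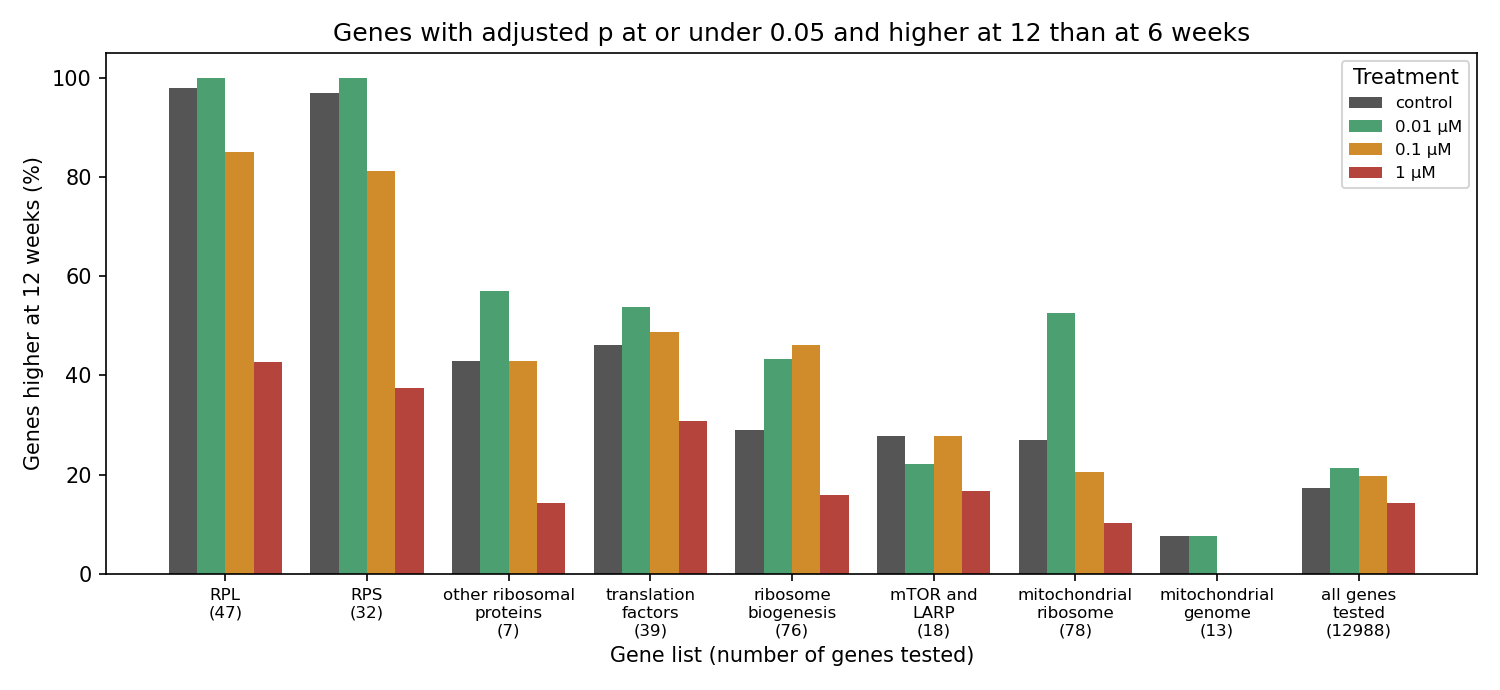
Percentage of genes in each list that passed an adjusted p of 0.05 and were higher at 12 than at 6 weeks, in the vehicle and at 0.01, 0.1 and 1 µM (bars; number of genes tested in parentheses). The RPL and RPS bars reach 97.9 and 96.9% in the vehicle and 42.6 and 37.5% at 1 µM, where all genes tested give 17.3 and 14.2%.

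Among the comparisons with the vehicle, the translation lists held most of their calls at 0.1 µM after 6 weeks. All genes tested also had most of their calls there, 544 of 12836 (4.24%), so this concentration is not particular to the lists. There, 9 of 76 ribosome biogenesis genes fell and 0 rose, while 2.69% of all genes tested fell. Among them, IMP3 fell by 0.21 ± 0.04, NOC2L by 0.19 ± 0.04, BOP1 by 0.22 ± 0.05, NOP10 by 0.16 ± 0.04 and POLR1A, the largest subunit of RNA polymerase I, by 0.16 ± 0.04. Of the 39 translation factors 5 fell and EIF4B rose (0.14 ± 0.03), and 3 of 78 mitochondrial ribosomal proteins fell. At 1 µM after 12 weeks the initiation factor EIF1 fell by 0.23 ± 0.05 (adjusted p = 0.041), the only call among the 39.

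Read against the start of the transcript, the members with and without the pyrimidine run gave these values. In the vehicle, 46 of 46 tested members with a run rose with a median of 0.32, and 16 of 17 without it with a median of 0.29. At 1 µM the counts were 18 of 46 and 7 of 17, with a median of 0.15 in both. Among 736 tested genes outside the rule that had the run, 167 rose (22.7%, background 17.3%) and 105 fell in the vehicle, with a median of 0.03.

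For 12 against 6 weeks, 1195 short genes outside the rule were tested. In the vehicle 257 of them rose (21.5%) and 129 fell between 6 and 12 weeks, with a median of 0.06 against 0.33 in the members. At 1 µM the median of the short genes was −0.02 and that of the members 0.15. Across the 79 members, counts per TPM and the log2 fold change between times correlated at −0.13 in the vehicle and 0.0983 at 1 µM (Pearson r over genes, which are not independent). By position, the files place the members on 21 chromosomes, with 11 on chromosome 19 and 4 on X, and list 8, RPS2 and RPS18 among them, on an alternate or patch sequence, for which no coordinates are given here.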

How the data were processed

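The data were expected counts per gene, which the authors deposited without normalization, and TPM, which the authors deposited per library. Per the labels, stranded poly(A) libraries were sequenced on a DNBSEQ platform, and the submitters' processing notes name HISAT2 2.0.4, Bowtie2 2.2.5, RSEM 1.2.8 and GRCh38.p14. The deposited FPKM and normalized counts were not used here. Of 47137 gene entries, 18583 had values, and 0 columns were left unmapped.

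Rounded expected counts entered two-sided quasi-likelihood tests (edgeR 4.0.16, robust; TMM scaling, filterByExpr) in R 4.3.3 with limma 3.58.1, adjusted by Benjamini-Hochberg over all genes tested; the scripts were tested on simulated data. PFOS was compared with vehicle in the 16 libraries of a time, and 12 with 6 weeks and the interaction in all 32. Called means an adjusted p at or under 0.05. DESeq2 1.42.0 and other settings were alternatives. Values given per library are CPM scaled by TMM over 32 libraries. The depth, nearly equal between libraries, allows up to 3 counts where 0 were seen, counting error only. Figures and summaries used Python with pandas and matplotlib.

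The labels state that the flask of each vial was divided into the 4 treatments, so replicate numbers pair samples. The mean correlation of same-numbered deviations between groups lay between −0.161 (vehicle and 1 µM at 12 weeks) and 0.154. Members and lists were chosen with earlier results of these data known. Named were up to 10 called members per comparison by adjusted p (3 where none was called), members of known role, the 5 highest and 5 lowest by TPM and the 5 most variable, and up to 5 called genes per list. Some members that this choice names are not reported here and not drawn. Sequences are RefSeq's, and 17 members had no entry. Ribosomal protein genes have many processed pseudogenes, and 11 members had fractional counts in some library.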

Additional observations from a re-analysis of the deposited data

Results flagged for a closer look

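The summed share and 15 members were examined for a library far from the other 3 of its group, in 128 groups, of which chance flags about 1 in 20. In 10 groups the distance passed Dixon's 95% limit for 4 values. The summed share was 4.58% in vial 3 of 1 µM at 6 weeks, above the other vials. RPS2 was at 1906 CPM in vial 1 of 1 µM at 6 weeks, below the other vials by little (1930 CPM and above), RPL3 at 2151 CPM in vehicle vial 1 at 12 weeks, and RPS4X at 766 CPM in vial 3 of 0.01 µM at 6 weeks. RPSA was at 807 CPM in vehicle vial 3, RPL41 at 873 CPM and RPS13 at 197 CPM in vehicle vial 4, all at 6 weeks. RPS26 was at 177 CPM in vial 3 of 0.1 µM and RPL41 at 1037 CPM in vial 3 of 1 µM, both at 6 weeks. RPLP1 was at 785 CPM in vial 4 of 1 µM at 12 weeks.

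For 3 of the 15 members, 1 µM lay above the vehicle in each of the 4 vials at 6 weeks and below it in each at 12 weeks. The mean difference in CPM went from 63.3 to −139 in RPS2 (a change of −203), from 18.8 to −26.7 in RPL36A (−45.5) and from 24.8 to −64.6 in RPL14 (−89.4). In edgeR's interaction test these changes had adjusted p of 0.395, 0.216 and 0.145. Same-numbered vials of vehicle and 1 µM at 12 weeks deviated from their group means in opposite directions (mean correlation −0.161, from −0.185 to −0.106), so the comparison by vial at 12 weeks rests on an uncertain pairing, and the RPS2 ranges of these groups overlap. All 3 were measured against the same vehicle libraries. The share of all genes tested with the same pattern is not given here, so the count is not read as particular to the members. RPL14 had been named for the smallest p of the members at 1 µM after 12 weeks and in the interaction, so its place among the 3 is no separate evidence.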

How the results depend on the processing

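The number of members called between 12 and 6 weeks stayed within 1.5 times of the value given under every alternative in the vehicle (66 to 78), at 0.01 µM (70 to 79) and at 0.1 µM (53 to 70). At 1 µM (32) it was 52 with the 8 libraries of both groups alone and 50 without vials 3 and 4 of 0.01 µM at 12 weeks. Leaving out 1 vial at a time gave 66 to 77, 77 to 79, 53 to 66 and 18 to 34 called members (18 without vial 2 and 20 without vial 3 at 1 µM). For PFOS against vehicle, DESeq2 gave 1 at 0.1 µM and 2 at 1 µM after 6 weeks, and leaving out 1 vial gave 0 to 2 at both and 0 to 1 at 0.1 µM after 12 weeks. In the interaction at 1 µM, DESeq2 gave 1 and the fit without vials 3 and 4 of 0.01 µM at 12 weeks gave 4. The cause of these changes was not tested. Shares of all genes called under these alternatives are not given here, so the counts are not read as particular to the members. With the vial as replicate block, 76, 79, 66 and 33 members were called between the times and 0 elsewhere, so the block changed no count by over 1.5 times.

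On the TPM scale the summed share against vehicle after 6 weeks was 0.998 times at 1 µM, in place of 1.03, and 0.984 times at 0.1 µM, in place of 1.01. The median log2 fold change at 0.01 µM without vials 3 and 4 went from 0.15 to −0.0036 against vehicle after 12 weeks and from 0.10 to −0.05 in the interaction. Of 862 further values of named members under alternatives, 853 kept direction and side of the threshold, 9 passed it, and 0 turned direction. With 4 vials a group, the absence of a call does not show that levels were equal. RPL3L and RPL10L were too low at this depth for a test.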
